A study of Mus musculus with 4 samples.

Results

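The respiratory chain and the ATP synthase were described across 3 mouse medulloblastomas and 1 normal cerebellum. The 95 genes came from 19938 genes with a usable probe set. They were chosen by symbol: the Ndufa, Ndufb, Ndufc, Ndufs and Ndufv genes, Sdha to Sdhd, the Uqcr genes, Cox4 to Cox8, the Atp5 genes, Cyc1 and Cycs, without pseudogenes. Of these, 81 encode structural subunits, with 34 of complex I, 4 of complex II, 9 of complex III, 17 of complex IV and 17 of complex V, tissue-restricted isoforms included. The other 14 were 7 complex I and 4 complex II assembly factors, cytochrome c (Cycs), the Cox7a paralogue Cox7a2l and the Ndufa4 paralogue Ndufa4l2. Cox7c and Ndufb4, whose probe sets carry several symbols, fell outside the rule.

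Total RNA of each sample was measured on 1 Affymetrix Mouse Gene 1.0 ST array. The control was whole cerebellum, wild-type and 2 months old. The SmoM2 tumours were 2 medulloblastomas, 1 taken at 1 month and 1 at 2 months, of the genotype Math1-Cre;SmoM2, in which Cre driven by Math1 (Atoh1), a gene of the granule neuron progenitor lineage, switches on an active form of Smoothened. The PtchLacZ/+ tumour came from a mouse aged 5 months that carries a lacZ allele of the Hedgehog receptor gene Ptch1. Tumours arose spontaneously, and all mice, the control included, were of a mixed C57BL/6 and C3H background. The labels do not say how many animals a sample came from. The spread behind the p-values lies between tumours that differ in age or genotype, mixed with animal and technical spread. In PtchLacZ/+ against SmoM2 it is the difference between the SmoM2 ages. No p-value measures the spread between animals of the same condition. Tumour genotype and age cannot be told apart, and the control matches only the older SmoM2 mouse in age.

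Oxidative phosphorylation takes place at the inner mitochondrial membrane. Complexes I (NADH dehydrogenase) and II (succinate dehydrogenase) pass electrons to ubiquinone, complex III passes them to cytochrome c, and complex IV (cytochrome c oxidase) passes them to oxygen. Complexes I, III and IV pump protons, and complex V, the ATP synthase, uses the gradient to make ATP. Mature neurons depend heavily on this pathway, while granule neuron progenitors are known for aerobic glycolysis. The subunits described here are encoded in the nucleus. Of the 13 genes of the chain encoded by mitochondrial DNA, none had a named probe set, so that part was not analysed here.

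Levels are deposited log2 values, and a difference is a log2 difference, tumours minus cerebellum, with limma's standard error (3 tumours against 1 cerebellum). A gene is said to have fallen or risen where the limma p, adjusted by Benjamini-Hochberg over all 19938 genes, was under 0.05. The tissue labels were checked first. All 8 pan-neuronal markers fell in the tumours, and the summed signal of the list, on the linear scale, was 18927 in the cerebellum and 1846 to 3088 in the tumours. All 6 granule neuron progenitor markers rose, from a summed signal of 807 to 17367 to 23595. In such bulk samples, fewer neurons and less RNA of a gene per cell cannot be told apart, which holds for every difference below.

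Sequences upstream of 4 of the genes are shown first. Atp5g1, Atp5g2 and Atp5g3 carry a contrast described below, and Sdha was added as a single example of the genes that fell. Atp5g1, Atp5g2 and Atp5g3 encode the same mature c subunit of the ATP synthase rotor with different import sequences, and had differences of opposite sign between tumours and cerebellum. Sdha, the flavoprotein of complex II, fell. Each line gives the 250 bases before the RefSeq start on GRCm38.p6, 5′ to 3′ on the gene's strand. Capitals mark matches on either strand to GCGCA, any base and GCGC, a core of the sites bound by NRF1, a factor known to control many respiratory chain genes, or to the ETS letters CCGGAAG, the core bound by GABPA.
Atp5g1, chr11:96075632-96075881, minus strand: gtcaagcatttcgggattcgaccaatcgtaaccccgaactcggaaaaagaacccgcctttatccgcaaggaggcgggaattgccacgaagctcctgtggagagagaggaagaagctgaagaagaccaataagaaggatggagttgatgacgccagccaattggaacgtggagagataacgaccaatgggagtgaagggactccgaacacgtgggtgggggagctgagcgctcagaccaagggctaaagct
Atp5g2, chr15:102671048-102671297, minus strand: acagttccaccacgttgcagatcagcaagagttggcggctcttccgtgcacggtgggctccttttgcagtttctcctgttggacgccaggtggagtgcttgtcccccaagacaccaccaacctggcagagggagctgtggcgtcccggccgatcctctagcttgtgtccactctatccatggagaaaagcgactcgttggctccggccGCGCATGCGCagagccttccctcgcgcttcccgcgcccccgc
Atp5g3, chr2:73911327-73911576, minus strand: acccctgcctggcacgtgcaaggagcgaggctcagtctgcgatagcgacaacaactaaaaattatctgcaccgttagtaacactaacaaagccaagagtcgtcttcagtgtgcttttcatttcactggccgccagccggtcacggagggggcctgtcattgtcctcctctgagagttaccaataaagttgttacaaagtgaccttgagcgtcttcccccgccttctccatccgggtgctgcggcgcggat
Sdha, chr13:74350241-74350490, minus strand: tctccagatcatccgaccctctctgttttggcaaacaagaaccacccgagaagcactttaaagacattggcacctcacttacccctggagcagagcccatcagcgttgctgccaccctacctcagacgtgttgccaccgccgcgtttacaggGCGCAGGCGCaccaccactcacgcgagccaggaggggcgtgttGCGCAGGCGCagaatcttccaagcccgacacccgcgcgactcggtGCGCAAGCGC
Atp5g2 held 1 match to the NRF1 letters, which read the same on both strands there, from 42 to 33 bases before the start. Sdha held 3, which began 98, 55 and 10 bases before it. Atp5g1 and Atp5g3 held no match to either motif in this window.

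The upstream sequence was in the RefSeq table for 78 of the 95 genes. The NRF1 letters occurred in 13 of them (16.7%), against 6.4% of the 15614 named genes of the array with such a sequence. The ETS letters occurred in 15 (19.2%), against 10.7%. The letters AAGATGG, of YY1 sites, occurred in 1 of the 78 (1.28%, against 4.87%), and the Sp1 letters GGGCGG in 33 (42.3%, against 49.3%). Among the 15 genes with a sequence that fell in the tumours, 3 held the NRF1 letters (20.0%), and among the 63 that did not pass, 10 did (15.9%). The ETS letters went the other way, with 2 (13.3%) and 13 (20.6%), as did the Sp1 letters, with 5 (33.3%) and 28 (44.4%). The YY1 letters were in 0 and 1. A match is a run of letters and not a measured site.

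Most respiratory chain genes were lower in the tumours, and none rose. Of the 95, 19 fell (20.0%), where 9.3% of all named genes fell, and 0 rose, where 6.7% of all named genes did. The level was below the cerebellum in all 3 tumours for 76 of the 95 (80.0%), against 32.0% of all named genes, and above it in all 3 for 4, against 38.1%. Of the 95, 85 lay above the median level of named genes. Among the 9969 named genes above that level, 12.9% fell and 37.3% were below the cerebellum in all 3 tumours. The median difference over the 81 subunits was -0.71, and that over all named genes was 0.04. The single values ran from -1.83 for Uqcrb to 0.69 for Atp5g2, so the differences were modest beside those of the neuronal markers (median -3.44). Among markers of other mature cells, 6 of 7 of oligodendrocytes fell. So did 5 of 8 astrocyte and Bergmann glia markers (3 when the younger SmoM2 tumour was left out, 2 when PtchLacZ/+ was). In that list Gfap lay above the cerebellum without passing (1.17 ± 0.46). Of 7 microglia and macrophage markers, 4 rose and none fell. The part of these cells in the respiratory chain differences was not tested.

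The 3 tumours were not equally low. Over the 81 subunits the median difference from the cerebellum was -0.85 in the 1-month SmoM2 tumour, -0.83 in the PtchLacZ/+ tumour and -0.40 in the 2-month SmoM2 tumour. The number of genes past the threshold followed which tumours were in the fit. Without the 2-month SmoM2 tumour 72 of the 95 passed, all lower (16.7% of all named genes were then lower and past it). Without the 1-month SmoM2 tumour 5 passed (background 6.48%), namely Uqcrb, Ndufs1, Sdha, Ndufaf5 and Atp5g3, and without the PtchLacZ/+ tumour none did (background 4.7%). In that last fit 28 of the 95 had an unadjusted limma p under 0.05, against 22.5% of all named genes. The 19 falls rest on a single cerebellum, which was assumed to vary as the tumours do.

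**Figure D1:**
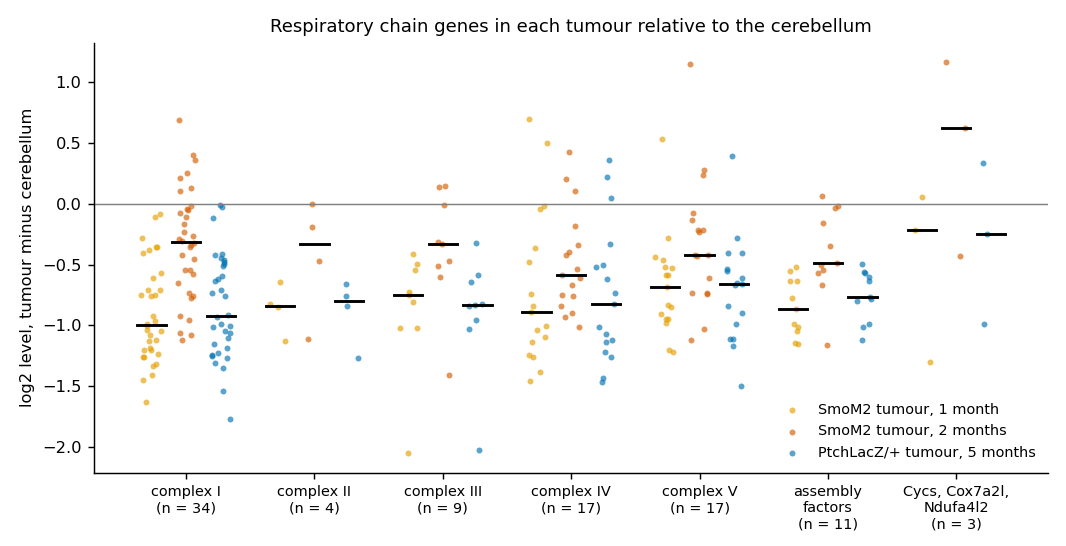
Each point is 1 gene in 1 tumour, as its log2 level minus that in the cerebellum (vertical axis), grouped by complex (horizontal axis) and coloured by tumour, and black bars are medians. Most points lie below 0, and the medians of the 2-month SmoM2 tumour are nearer to 0 than those of the other tumours in every complex.

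Complex I, the entry point for electrons from NADH, was lower for nearly all of its subunits. Of 34, 5 fell (14.7%), near the 12.9% of named genes above the median level that did (9.3% of all named genes). In all 3 tumours 27 were below the cerebellum (79.4%, against 37.3% of the genes above that level) and 0 above it. The median difference was -0.71. The 6 measured core subunits, which include those that carry the flavin and the iron-sulphur clusters, had a median of -0.78. The 28 accessory subunits had one of -0.67. Among core subunits, Ndufs1, the largest iron-sulphur protein of the NADH-oxidising module, was at 10.81 in the cerebellum and at 9.58, 9.69 and 9.46 in the 1-month SmoM2, 2-month SmoM2 and PtchLacZ/+ tumours. It fell by 1.23 ± 0.18 (limma adjusted p = 0.0152), and the tumours lay close together, more than 1 unit below the cerebellum. Ndufs7, of the quinone-binding module, was at 10.99, 9.73, 10.21 and 9.72 in the same order and just missed the threshold (-1.10 ± 0.26, limma adjusted p = 0.0521). Ndufs8, of the same module, was at 9.67, 9.29, 10.03 and 9.22, with the 2-month SmoM2 tumour above the cerebellum and the other tumours below it (-0.15 ± 0.37, limma adjusted p = 0.851). Ndufv1 and Ndufv2, which bind the flavin and an iron-sulphur cluster at the NADH end, differed by -0.64 ± 0.31 and -0.73 ± 0.43 and did not pass.

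The other complex I falls were in accessory subunits. Ndufa6 was at 10.15 in the cerebellum and at 8.70, 9.08 and 8.38 in the tumours (-1.43 ± 0.31, limma adjusted p = 0.0391), a cerebellum level 2.69 times that of the tumours. Ndufb3, of the membrane arm, was at 8.97, 7.34, 8.02 and 7.43 (-1.38 ± 0.31, limma adjusted p = 0.0471). Ndufa5, of the matrix arm, was at 9.73, 8.40, 8.65 and 8.72 (-1.14 ± 0.20, limma adjusted p = 0.0251). In all of these every tumour lay below the cerebellum, with a wider spread between tumours for Ndufa6 and Ndufb3 (SD 0.35 and 0.37) than for Ndufa5 (0.17). Ndufc1, of the membrane arm, was at 10.60, 9.41, 9.67 and 9.41 (-1.10 ± 0.20, limma adjusted p = 0.0248). At the other end, Ndufa7 was at 7.58 in the cerebellum and at 7.50, 8.27 and 7.56 in the tumours (0.19 ± 0.36), and Ndufa2 at 9.26, 9.15, 9.67 and 9.25 (0.09 ± 0.26). For both, the 2-month SmoM2 tumour alone lay above the cerebellum, and without it the difference was -0.06 for each.

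Of the 7 complex I assembly factors, which help build the complex and are not part of it, 2 fell (28.6%, against 9.3% of all named genes). All 7 were below the cerebellum in every tumour. Ndufaf5 was at 7.62 in the cerebellum and at 6.47, 6.46 and 6.50 in the tumours, which differed by less than 0.05 from each other (-1.14 ± 0.16, limma adjusted p = 0.0138). Ndufaf3 was at 8.57, 7.80, 7.90 and 7.77 (-0.75 ± 0.17, limma adjusted p = 0.0463).

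Complex II, which also works in the TCA cycle, had 4 subunits, all below the cerebellum in every tumour, and 1 fell. Sdha was at 11.29 in the cerebellum and at 10.16, 10.19 and 10.02 in the tumours (-1.17 ± 0.18, limma adjusted p = 0.0156), again with the tumours close together. The iron-sulphur subunit gene Sdhb was at 9.19, 8.55, 9.19 and 8.54 (-0.43 ± 0.32, limma adjusted p = 0.467), so that the 2-month SmoM2 tumour was level with the cerebellum. The membrane anchor genes did not pass either. Sdhc was at 10.78, 9.92, 10.31 and 9.94 (-0.72 ± 0.23) and Sdhd at 10.02, 9.20, 9.83 and 9.26 (-0.59 ± 0.30), with the 2-month SmoM2 tumour nearest to the cerebellum in both. None of the assembly factors Sdhaf1 to Sdhaf4 passed. Sdhaf1 was at 9.49 in the cerebellum and at 8.50, 9.55 and 8.92 in the tumours, with a wide spread between the SmoM2 tumours.

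Complex III showed the largest difference of all 95 genes. Uqcrb, a small subunit near the quinone site, was at 11.79 in the cerebellum and at 9.74, 10.38 and 9.77 in the tumours. It fell by 1.83 ± 0.31 (limma adjusted p = 0.0217), a cerebellum level 3.55 times that of the tumours, and its 2 other probe sets differed by -1.90 and -1.72. No other of the 9 subunits passed, so that 11.1% fell, near the 9.3% of all named genes. The catalytic subunits Uqcrfs1, the Rieske iron-sulphur protein, and Cyc1, cytochrome c1, differed by -0.73 ± 0.18 (limma adjusted p = 0.0605) and -0.73 ± 0.31 (limma adjusted p = 0.198). Uqcrc1, a core subunit, was at 11.28, 10.25, 10.81 and 10.25 (-0.84 ± 0.29, limma adjusted p = 0.127). The smallest differences were those of the small subunits Uqcrq, at 8.77, 8.22, 8.91 and 8.18 (-0.33 ± 0.34), and Uqcr11, at 8.57, 8.15, 8.72 and 8.24 (-0.20 ± 0.28), for which the 2-month SmoM2 tumour lay above the cerebellum. Cycs, the mobile carrier and a trigger of apoptosis when released, was at 11.02 in the cerebellum and at 9.72, 10.59 and 10.03 in the tumours (-0.90 ± 0.36, limma adjusted p = 0.178). Without the 2-month SmoM2 tumour it passed (-1.14, limma adjusted p = 0.00880).

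In complex IV the subunits common to most tissues were lower in the tumours, while tissue-restricted isoforms lay on both sides of the cerebellum. Of the 10 subunits common to most tissues, 4 fell, and all 10 were below the cerebellum in every tumour and had an unadjusted limma p under 0.05. Cox8a was at 11.06 in the cerebellum and at 9.68, 10.17 and 9.60 in the tumours (-1.25 ± 0.28, limma adjusted p = 0.0437). Cox7a2 was at 11.02, 9.77, 10.01 and 9.59 (-1.23 ± 0.22, limma adjusted p = 0.0253), and Cox4i1, which binds the catalytic core, at 11.20, 10.10, 10.44 and 10.07 (-0.99 ± 0.22, limma adjusted p = 0.0441). In all of these the tumours lay about 1 unit or more below the cerebellum, apart from the 2-month SmoM2 tumour for Cox8a and Cox4i1. Cox6c was at 12.17, 11.27, 11.23 and 11.04 (-0.98 ± 0.19, limma adjusted p = 0.0285). Cox6a1 was at 11.48, 10.02, 10.73 and 10.22 (-1.16 ± 0.31, limma adjusted p = 0.0730), and Cox6b1 at 11.42, 10.41, 11.02 and 10.69 (-0.71 ± 0.28). Cox7b, whose family also holds Cox7b2, was at 10.89, 9.75, 10.28 and 9.88 (-0.92 ± 0.26, limma adjusted p = 0.0799). Ndufa4, a subunit first assigned to complex I, was at 12.59, 11.55, 12.00 and 11.97 (-0.75 ± 0.25).

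Of the 7 isoforms known from muscle, lung, testis or other restricted sites, 1 fell (14.3%, against 9.3% of all named genes). Cox7a1, the heart and muscle form of Cox7a, was at 6.82 in the cerebellum and at 6.08, 5.98 and 5.99 in the tumours (-0.80 ± 0.17, limma adjusted p = 0.0366), with all 4 levels under or near the array medians of named genes (6.73 to 6.82). Cox4i2, the lung form of Cox4, was at 6.68, 6.32, 6.27 and 6.18 (-0.43 ± 0.17), and Cox6b2, a testis form, at 6.03, 6.01, 6.47 and 5.70. Cox7b2 was at 5.13, 4.66, 4.79 and 4.61. Cox8b, a muscle form, was at 4.96, 5.46, 5.17 and 5.19, and Cox8c, a testis form, at 6.32, 6.27, 6.13 and 6.36. Cox7b2 in the tumours, and Cox8b in the cerebellum and the 2-month SmoM2 tumour, were under the lower quartile of their array (5.09 to 5.17) and not shown to be above background. Cox6a2, the muscle form of Cox6a, was at 6.40, 7.10, 6.51 and 6.76, above the cerebellum in every tumour but within the spread of the tumours (0.39 ± 0.27, limma adjusted p = 0.442). Of 5 muscle markers none passed, and their summed signal was 293 in the cerebellum and 314 to 386 in the tumours.

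Neither paralogue of a complex IV subunit passed. Cox7a2l, which joins complexes III and IV into supercomplexes, was at 9.56 in the cerebellum and at 9.61, 10.72 and 9.89 in the tumours (0.52 ± 0.45, limma adjusted p = 0.546). Its excess came mostly from the 2-month SmoM2 tumour, without which the difference was 0.20. Ndufa4l2, a hypoxia-induced gene, was at 6.15, 5.94, 6.78 and 5.91 (0.05 ± 0.40), and turned to -0.01 after quantile normalization.

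**Figure D2:**
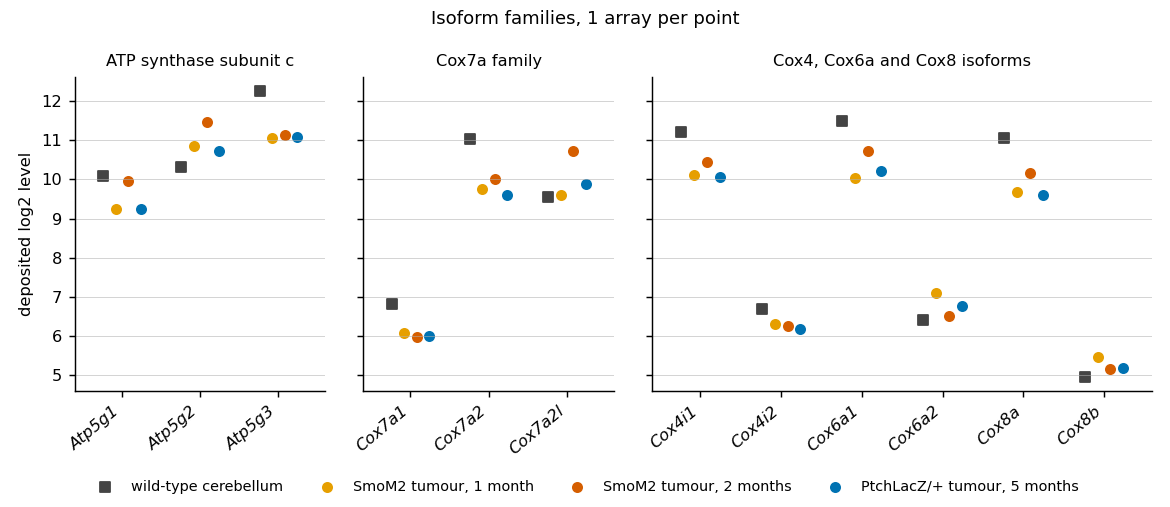
Deposited log2 levels (vertical axis) of isoform genes (horizontal axis) are plotted with 1 point per array. All tumours lie below the cerebellum square for Atp5g1, Atp5g3, Cox7a1, Cox7a2, Cox4i1, Cox4i2, Cox6a1 and Cox8a. They lie above it for Atp5g2, Cox7a2l, Cox6a2 and Cox8b.

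Of the 17 subunits of complex V, 5 fell (29.4%, against 9.3% of all named genes). In all 3 tumours 14 were below the cerebellum, and the median difference was -0.54. The falls were in 2 of 4 peripheral stalk subunits, 2 of 5 small membrane subunits and 1 of 3 genes for subunit c. Atp5md, a small membrane subunit, was at 11.85 in the cerebellum and at 10.63, 10.82 and 10.35 in the tumours (-1.25 ± 0.24, limma adjusted p = 0.0286). Atp5l, another small membrane subunit, was at 10.27, 9.29, 9.53 and 9.16 (-0.94 ± 0.21, limma adjusted p = 0.0456), and its 6 probe sets differed by -0.94 to -1.03. In the peripheral stalk, which holds the catalytic head still, Atp5h was at 11.98, 11.03, 11.25 and 10.99 (-0.89 ± 0.19, limma adjusted p = 0.0404). Atp5pb, of the same stalk, was at 11.48, 10.57, 10.74 and 10.58 (-0.84 ± 0.18, limma adjusted p = 0.0372). Every tumour lay below the cerebellum in all of these. The other stalk genes Atp5o (-0.47 ± 0.23) and Atp5j (-0.26 ± 0.16) did not pass. None of the 5 subunits of the F1 head passed. The catalytic beta subunit gene Atp5b was at 13.25, 12.73, 12.83 and 12.60 (-0.53 ± 0.18, limma adjusted p = 0.132) and the alpha subunit gene Atp5a1 at 13.07, 12.64, 12.64 and 12.41 (-0.51 ± 0.19, limma adjusted p = 0.153). The delta subunit gene Atp5d was at 11.12, 10.66, 11.40 and 10.72, on both sides of the cerebellum (-0.20 ± 0.34).

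The 3 genes for subunit c differed from each other, and the sequences before them are shown above. Atp5g3 was at 12.25 in the cerebellum and at 11.05, 11.13 and 11.07 in the tumours, and fell by 1.16 ± 0.17 (limma adjusted p = 0.0137), with the tumours within 0.1 of each other. Atp5g1 was at 10.09, 9.25, 9.96 and 9.25 (-0.60 ± 0.34, limma adjusted p = 0.332), with the 2-month SmoM2 tumour near the cerebellum. Atp5g2 was at 10.33, 10.86, 11.47 and 10.72, above the cerebellum in all 3 tumours, and its difference of 0.69 ± 0.34 did not pass (limma adjusted p = 0.259, or 0.0872 when the 2-month SmoM2 tumour was left out). Its other probe sets differed by 0.71 and 0.68. Atp5g2 was thus the only structural subunit of complexes I, II, III and V above the cerebellum in every tumour, and a test of its difference from Atp5g3 was not made.

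Several of these genes have near-identical copies in the genome, so a probe set may read more than 1 of them. Of the 95, 19 had 2 to 6 probe sets, and in 2 of the 19 the probe sets differed in sign. For Ndufb11 the probe sets differed by -0.39 and 0.26, and for Sdhaf4 by -0.74 and 0.26. The lowest of the 3 Cycs probe sets was at 7.47 in the cerebellum and 5.62, 5.25 and 6.02 in the tumours, so it lacked the higher level that the other Cycs probe sets had in the 2-month SmoM2 tumour.

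Genes around the respiratory chain were read from lists. Of all named genes, 9.3% fell and 6.7% rose. In the lists 22 of 107 genes passed in all, of which Pprc1, Nrf1, Gabpa and Twnk rose and the others fell. Of these, 22 also passed when the older SmoM2 tumour was left out, 7 when the younger was and 5 when PtchLacZ/+ was, and the 5 were Sucla2, Ckmt1, Ppargc1a, Ppargc1b and Esrrg. Of 17 TCA cycle and pyruvate dehydrogenase genes, 5 fell and none rose (median -0.79). Sucla2, a succinyl-CoA ligase subunit of the brain, fell by 1.53 ± 0.21 and Idh3b, an isocitrate dehydrogenase subunit, fell by 1.26 ± 0.25, while Suclg2, the alternative ligase subunit, differed by 0.55 ± 0.45 and Mdh2 by 0.03 ± 0.22. Among 12 carriers and energy shuttles, 4 fell (median -0.74). Ckmt1, the mitochondrial creatine kinase of brain, was at 10.87 in the cerebellum and at 7.04, 6.95 and 6.27 in the tumours (-4.12 ± 0.35, limma adjusted p = 0.00509). Slc25a22, a glutamate carrier, fell by 1.71 ± 0.29. The ADP/ATP carrier gene of differentiated cells, Slc25a4, fell by 0.98 ± 0.20, and that of dividing cells, Slc25a5, differed by -0.04 ± 0.29. The testis carrier gene Slc25a31 stayed between 3.71 and 3.92 in all 4 arrays.

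The next lists of mitochondrial genes varied in the share that fell, where 9.3% of all named genes did. Of 12 protein import genes none passed in limma, and 1 had an unadjusted p under 0.05, as did 5922 of all 19938 named genes. The median was 0.07, with Timm50 at 0.95 ± 0.38, Hspd1 at 0.50 ± 0.19, Timm17a at -0.41 ± 0.19 and Timm23 at -0.23 ± 0.23. Of 14 complex IV assembly factors, 3 fell (21.4%, median -0.30), led by Surf1 (-1.25 ± 0.22) and Cox14 (-1.06 ± 0.23). At the other end Cox10 differed by 0.20 ± 0.19 and Sco1 by -0.10 ± 0.20. Of 8 complex III and V factors, Atpaf1, which helps assemble the F1 head, fell (-1.21 ± 0.22, median -0.55), and Ttc19 differed by -0.80 ± 0.32, Bcs1l by 0.16 ± 0.28 and Uqcc2 by 0.26 ± 0.47. Of the 8 other complex I assembly factors none passed (median -0.29), with Tmem126b at -0.97 ± 0.27, Ecsit at -0.65 ± 0.30, Nubpl at 0.21 ± 0.19 and Timmdc1 at 0.23 ± 0.20. Of 8 coenzyme Q synthesis genes Coq3 fell (-0.89 ± 0.17, median -0.38), with Coq9 at -0.85 ± 0.22, Coq6 at 0.21 ± 0.27 and Coq4 at 0.32 ± 0.20. Of 7 uncoupling and antioxidant genes Slc25a14 fell (-0.97 ± 0.18, median -0.54), with the superoxide dismutase gene Sod2 at -1.12 ± 0.31, Slc25a27 at 0.15 ± 0.61 and the glutathione peroxidase gene Gpx1 at 0.40 ± 0.43.

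The regulators of mitochondrial biogenesis moved in both directions. Of 10, 3 fell (30.0%) and 3 rose, where 9.3% and 6.7% of all named genes did. The coactivator gene Ppargc1a (PGC-1 alpha) was at 8.04 in the cerebellum and at 5.65, 5.56 and 5.23 in the tumours (-2.55 ± 0.23, limma adjusted p = 0.00546). Ppargc1b was at 8.56, 6.17, 6.36 and 6.28 (-2.29 ± 0.18, limma adjusted p = 0.00436). The nuclear receptor gene Esrrg, a partner of these coactivators in neurons, was at 9.09, 6.70, 6.18 and 5.94 (-2.82 ± 0.33, limma adjusted p = 0.00875). For all of these the tumours lay more than 2 units below the cerebellum, and each also passed when any 1 tumour was left out. Nrf1, whose motif letters are shown above, was at 7.78 in the cerebellum and at 8.64, 8.74 and 8.81 in the tumours (0.95 ± 0.17, limma adjusted p = 0.0258). Gabpa was at 8.63, 9.63, 9.64 and 9.64 (1.01 ± 0.16, limma adjusted p = 0.0188), and the coactivator gene Pprc1 at 7.18, 8.08, 8.24 and 8.28 (1.02 ± 0.18, limma adjusted p = 0.0240). Without the 1-month SmoM2 or the PtchLacZ/+ tumour these rises did not pass (limma adjusted p = 0.0532 to 0.117). Of 11 genes for mitochondrial DNA upkeep and transcription, 1 rose, the helicase gene Twnk (1.40 ± 0.22), while Tfam, which packages mitochondrial DNA, differed by -0.18 ± 0.25, Ssbp1 by 0.57 ± 0.24, Top1mt by -0.92 ± 0.28 and Polrmt by -0.31 ± 0.19.

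**Figure D3:**
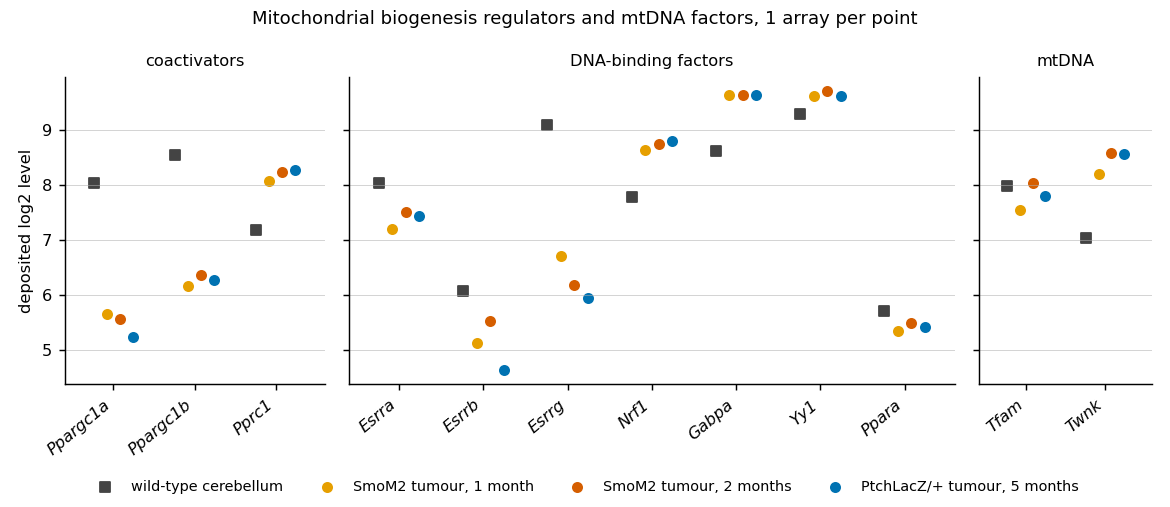
Deposited log2 levels (vertical axis) of biogenesis regulators and mitochondrial DNA genes (horizontal axis), 1 point per array. The tumours lie below the cerebellum square for Ppargc1a, Ppargc1b and Esrrg and above it for Nrf1, Gabpa, Pprc1 and Twnk.

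The SmoM2 tumours at 1 and 2 months were compared next. With 1 array each there is no replicate check and no test. Of the 95 genes, 88 were lower at 1 month (92.6%, against 59.8% of all named genes), with a median difference, 1 month minus 2 months, of -0.49 against -0.08. Only 3 were at least 2-fold lower and none 2-fold higher (1.66% and 2.05% of all named genes), namely Cox7a2l (-1.11), Ndufv3 (-1.07), an accessory subunit of complex I, and Sdhaf1 (-1.05). Ndufv3 was at 8.92 in the cerebellum and at 7.51, 8.58 and 7.81 in the tumours. Every subunit of complexes I, II, III and V was lower at 1 month, with medians of -0.59, -0.51, -0.55 and -0.26. In complex IV, 11 of 17 were, and the 6 that were not were Cox6c and 5 restricted isoforms. For Cox6c the difference was only 0.04, and its other probe set differed by -0.15. Among the 19 genes that had fallen against the cerebellum the difference between the ages ran from -0.68 for Ndufb3 to 0.10 for Cox7a1.

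The difference was not limited to the respiratory chain. All 12 protein import genes were lower at 1 month too (median -0.34). Among marker lists, all 5 endothelial and mural markers were lower at 1 month (median -1.14) and 7 of 8 pan-neuronal markers higher (median 0.44). Of 4 choroid plexus and ependyma markers 3 were higher at 1 month (median 0.86). Ttr, the choroid plexus transthyretin gene, was at 6.23 in the cerebellum and at 11.27, 4.50 and 10.81 in the 1-month SmoM2, 2-month SmoM2 and PtchLacZ/+ tumours, and its difference of 6.78 between the ages was the largest of all 19938 genes. The part of these cells in the respiratory chain values was not tested. The 2-month SmoM2 tumour was the highest of the 3 tumours for 86 of the 95 genes (90.5%), against 49.9% of all named genes.

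**Figure D4:**
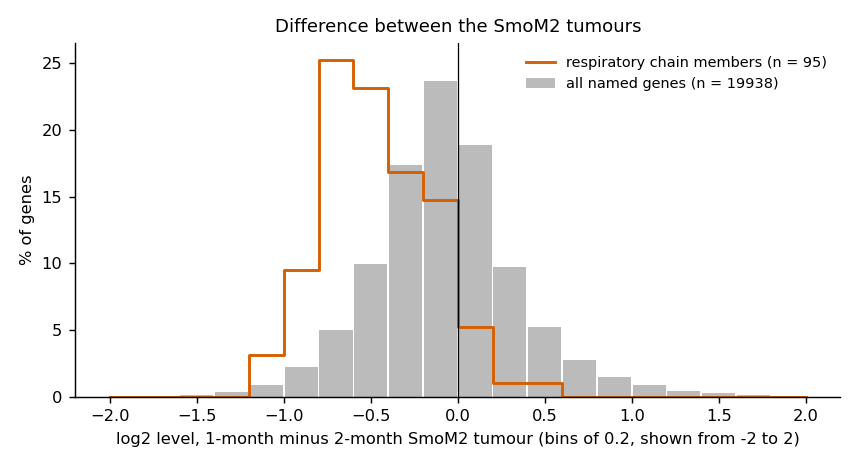
The share of genes (vertical axis, %) is plotted by log2 difference between the 1-month and the 2-month SmoM2 tumour (horizontal axis), with grey bars for all named genes and a line for the 95 respiratory chain genes. The line lies mostly to the left of 0, with medians of -0.49 for the respiratory chain and -0.08 for all named genes.

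The last comparison set the PtchLacZ/+ medulloblastoma against those of SmoM2 mice. No gene of the 95 passed in limma, which had 1 residual degree of freedom, and 0 of the 95 had an unadjusted p under 0.05. Of all named genes 0.0% passed the adjusted threshold and 1.4% the unadjusted one. Differences ran from -0.59 ± 0.32 for Ndufc2, a membrane arm subunit of complex I, to 0.20 ± 0.27 for Ndufa5, with a median of -0.22. The PtchLacZ/+ tumour was below both SmoM2 tumours for 48 of the 95, against 31.1% of all named genes. It was above both for 4 and between them for 43, against 4738 and 9007 of all 19938 named genes. Markers of mature cells were below both SmoM2 tumours as well, for 7 of 7 Purkinje cell (median difference -1.85), 7 of 7 oligodendrocyte (-0.91), 7 of 8 astrocyte and Bergmann glia (-1.03) and 7 of 10 mature granule neuron markers (-0.89). The part of these cells in the values of PtchLacZ/+ was not tested. Ndufc2 was at 11.10 and 11.59 in the 1-month and 2-month SmoM2 tumours and 10.75 in the PtchLacZ/+ tumour. Over the 95 genes the 1-month SmoM2 and PtchLacZ/+ tumours had a median difference of 0.00325, 1 month minus PtchLacZ/+. No gene lay 1 unit or more beyond the nearer SmoM2 tumour.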

How the data were processed

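The authors deposited log2 expression values of 35557 probe sets for 4 arrays, for which the submitters' processing notes name Affymetrix Expression Console. The sources used here do not give its version or how probes were summarised and normalized. From their range (2.71 to 14.9) the values were taken as log2. Values were used as deposited, without filter. The number of arrays limits the precision, and no detection calls were used.

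Probe sets were named by the platform annotation (21789 with 1 symbol, 1621 with several, 12147 with none), and symbols updated by Entrez identifier (21698 matched, RefSeq, GRCm38.p6). For the 999 genes with several probe sets the one with the highest mean was used. All 19938 genes were fitted with limma 3.58.1 in R 4.3.3 (lmFit, eBayes, Benjamini-Hochberg, adjusted p under 0.05), with 2 residual degrees of freedom for tumours against cerebellum and 1 for PtchLacZ/+ against SmoM2. The fit was tested on simulated data. Genes and lists (11 pathway lists with 107 of 129 entries measured, 13 marker lists with 80 of 84) were chosen with earlier results of these data known. Values in every sample are given for each gene past the threshold, the 2 extremes per complex and direction, isoform families, and genes 1 unit apart between tumours. From lists, the 2 extremes per direction were to be named, and other members were added for their role.

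For marker lists whose counts against the cerebellum are not given above, 7 of 10 mature granule neuron, 5 of 7 Purkinje cell and 3 of 4 inhibitory interneuron markers fell. All 6 proliferation and all 3 oligodendrocyte precursor markers rose, and none of 4 choroid plexus and ependyma markers passed. Coordinates are those of the RefSeq sequence table and not of the array.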

Additional observations from a re-analysis of the deposited data

Results flagged for a closer look

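Cox8c, a testis isoform of complex IV, lay on opposite sides of the cerebellum by tumour genotype, with both SmoM2 tumours below it and the PtchLacZ/+ tumour 0.048 above it on the log2 scale. The opposite signs themselves were not tested. PtchLacZ/+ minus SmoM2 was 0.16 ± 0.26 and did not pass (limma, unadjusted p = 0.558), and all 4 levels (6.13 to 6.36) were under the array medians of named genes.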

How the results depend on the processing

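The count of genes past the threshold between tumours and cerebellum (19) was 18 to 27 under quantile normalization, median centring, the filter on low levels, the mean of probe sets, a trended prior variance and centring in classes of genomic gene span. The last was chosen after seeing the data, since the reference holds gene spans and not transcript lengths, and classes of transcript length were not run. Leaving out 1 tumour gave 0 to 72. Of the 19 genes, 19 passed when the older SmoM2 tumour was left out, 5 when the younger was (adjusted p = 0.0401 to 0.136) and 0 without PtchLacZ/+ (adjusted p = 0.0604 to 0.192). Leaving out a tumour leaves 1 residual degree of freedom. The median over subunits stayed between -0.83 and -0.58. In PtchLacZ/+ against SmoM2 the count was 0 under each alternative run, and leaving out a SmoM2 tumour leaves no residual degree of freedom. Between the SmoM2 ages, the 3 genes past 2-fold became 1 after quantile normalization and 1 after median centring, and 39 passed at 1.5-fold. The share of all named genes past 1.5-fold was not computed, so the count of 39 cannot be set against a background. No paired analysis was possible because the groups share fewer than 2 replicate numbers.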

Other observations

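Genes left out because their probe sets carry several symbols had values much like those of their complexes. The 3 probe sets shared by Cox7c, a small subunit of complex IV, and a predicted gene were at 10.65 to 10.84 in the cerebellum, and their tumour means differed from it by -0.99 to -1.07. The 2 probe sets shared by Ndufb4, a membrane arm subunit of complex I, and its copy Ndufb4b were at 9.40 and 9.51 in the cerebellum and differed by -1.06 and -1.09. Both had the highest level of the tumours in the 2-month SmoM2 tumour (10.13 at most for Cox7c, 8.99 for Ndufb4).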
